A study of Danio rerio with 12 samples.

Results

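Haemogenic endothelium is the small population of endothelial cells, mainly in the floor of the embryonic dorsal aorta, that turns into haematopoietic stem and progenitor cells. This account describes the transcriptome of such cells from control zebrafish embryos at 36 hours post-fertilisation, as read in the 3 control RNA-seq libraries among the 6 RNA libraries and 12 samples of the series, over all 25011 genes of the deposited table. The embryos had a wild-type genotype label and carried a pair of transgenes, an mCherry reporter driven by kdrl, which marks endothelium, and a GFP reporter driven by a runx1 enhancer. About 5000 cells positive for both colours were sorted from the trunk for each sample, from as many pooled embryos as were needed, and the design text calls the 3 samples biological replicates. No source used here says whether the control embryos had received an injection. The gate was set on reporter proteins, so a cell may carry the colour without the transcript, and the values are averages over all cells that passed the gate.

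In the transition from endothelium to blood, arterial endothelial cells under Notch and flow signals switch on gata2b and runx1, and runx1 then drives a blood programme that includes myb and gfi1 genes while the endothelial programme is turned down. Scl (tal1), Lmo2, Fli1 and other ETS factors are shared by endothelium and blood. Inflammatory cytokines are known to promote the emergence of stem and progenitor cells in zebrafish and mouse embryos. A sorted sample at this stage can also hold primitive myeloid and red cells, which circulate through the trunk, and pieces of neighbouring muscle and notochord.

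Levels are given in TPM, the share of all transcripts that a gene holds, a unit that corrects for gene length and has the same sum in each library, so that genes can be compared with each other. The total estimated count was 24397076, 24836387 and 25118394 in controls 1, 2 and 3. At least 1 TPM was read for 15500, 15905 and 15237 genes, for 13896 genes in every library, and 6772, 1169 and 94 genes reached 10, 100 and 1000 TPM in every library. Controls 1 and 3 were alike and control 2 stood apart. Over the 8110 genes with a mean of at least 10 TPM, Pearson's r of log2(TPM + 1) across genes was 0.888 between controls 2 and 1, 0.888 between controls 2 and 3 and 0.965 between controls 1 and 3, where genes are not independent replicates. In control 2 the log2 difference from the mean of controls 1 and 3 was related to the length that the deposited counts and FPKM values imply (Spearman's rho = 0.35 across the same genes, which share the libraries). With the genes in 5 equal groups by length, its median was 0.71 in the longest group and 0.06 in the shortest. Values of control 2 are therefore given apart for most statements, while some pairs are given as means. The part of length in any result was not tested.

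The 5 markers of the sorted cells were all present at 10 TPM or more in every library. lmo2 (gene ID 30332), the LIM-only bridge protein shared by endothelium and blood, was the highest, at 189.9, 236 and 218 TPM in controls 1, 2 and 3. myb (30519), the transcription factor that marks emerging stem and progenitor cells, read 144, 204 and 145 TPM. gata2b (436962), the Gata2 copy of haemogenic endothelium in zebrafish, read 50.3, 45.4 and 49.2 TPM. These 3 genes stood in the same order in each library, with control 2 the highest for lmo2 and myb and the lowest for gata2b. kdrl (796537), a VEGF receptor and the gene behind the mCherry reporter, read 21.2, 60.6 and 16.6 TPM, with control 2 far above the others. runx1 (58126), the master regulator of the endothelial to haematopoietic transition, was the lowest of the 5, at 20.8, 32.95 and 13.7 TPM. kdrl lay above runx1 in every library, but in controls 1 and 3 by less than 3 TPM, so the order of these neighbours was not clear beyond their spread. By mean TPM lmo2 stood at rank 700, myb at 916, gata2b at 2893, kdrl at 3970 and runx1 at 5143 of 25011 genes. The estimated counts of kdrl and lmo2 were not all whole, as where reads are divided between features, so their values are less certain.

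**Figure D1:**
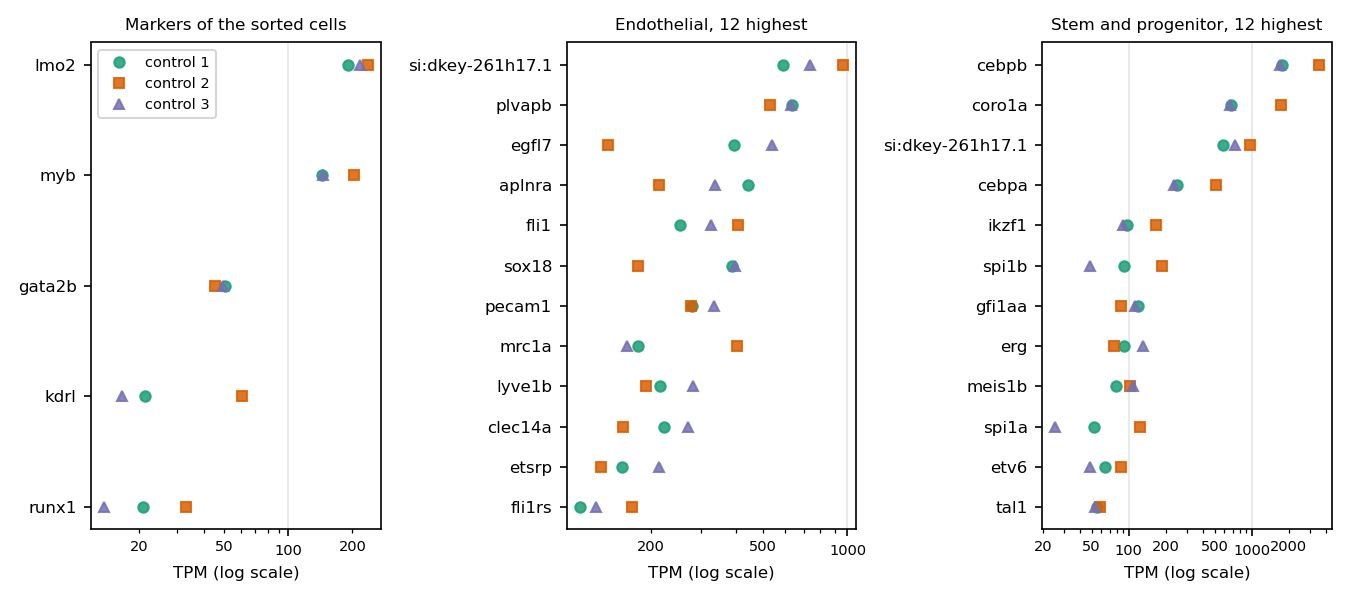
TPM on a log scale (x axis) of the 5 markers of the sorted cells, of the 12 highest endothelial genes and of the 12 highest stem and progenitor genes besides those markers (y axis), with a point for each control library. The points of lmo2 and gata2b lie close together, while kdrl reads 60.6 TPM in control 2 and at most 21.2 TPM in the other libraries.

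All 37 endothelial genes listed reached 1 TPM in every library, 34 of them reached 10 TPM and 14 reached 100 TPM. Their summed level was 5226, 5199 and 5920.2 TPM in controls 1, 2 and 3. si:dkey-261h17.1, named cd34 in the RefSeq gene table, was the highest at 589, 966 and 737 TPM. plvapb, which encodes a protein of endothelial fenestrae and caveolae, read 637, 531 and 628 TPM. egfl7, a secreted endothelial factor, read 395, 141 and 541 TPM and was lowest in control 2. The ETS factor fli1 read 253, 408 and 326 TPM, and the adhesion molecule pecam1 read 279, 279 and 335 TPM. The scavenger receptor gene mrc1a, a marker of veins and lymphatics, read 179.7, 404 and 164 TPM and was highest in control 2.

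Genes of arterial and venous identity were read side by side. All 9 venous genes reached 1 TPM in every library, with a summed level of 976, 1153 and 1150.2 TPM, led by dab2, an endocytic adaptor, at 452, 344 and 540.4 TPM. flt4, the VEGF-C receptor of veins and lymphatics, read 78.9, 89.1 and 117 TPM, and ephb4a, the venous Eph receptor, 26.1, 31.2 and 36.7 TPM. Of 23 arterial and Notch genes, 20 reached 1 TPM and 11 reached 10 TPM in every library. The list was led by Hairy-related repressors, with her9 at 474, 219 and 586 TPM and her6 at 399, 246 and 581 TPM. The Notch ligand dll4 read 152, 51.8 and 184 TPM and efnb2a, the arterial ephrin, 20.2, 11.8 and 23.7 TPM, a gene picked after its values were seen. The summed level of the arterial list was 1977, 916 and 2192 TPM. By sum, control 2 was the lowest library for this list and control 1 for the venous list. The venous sum includes mrc1a, at 179.7, 404 and 164 TPM. Medians of the log2 difference from the other libraries were also taken, relative to all genes, at a mean of at least 5 TPM. By these, control 2 was the lowest library for both lists. It had -0.84 for the arterial list and -0.37 for the venous list, where control 1 had -0.12. her9, her6, her15.1 and her12, at means of 427, 409, 293 and 183 TPM, gave most of the mean arterial sum of 1695 TPM. The sum therefore mainly reads these Hairy-related genes, whose dependence on Notch was not tested. By gene, control 2 was lowest for 9 of the 18 with a mean of at least 5 TPM, beside 19.8% of all genes at that level.

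Among 37 stem and progenitor genes, 33 reached 1 TPM and 21 reached 10 TPM in every library. The highest members were also genes of myeloid cells. cebpb, a factor of myeloid and emergency granulocyte programmes, read 1753, 3523 and 1703 TPM, and coro1a, an actin regulator of leukocytes, 680.0, 1730.0 and 664 TPM. ikzf1, the lymphoid and progenitor factor Ikaros, read 96.6, 165 and 89.4 TPM and spi1b, the myeloid factor Pu.1, 91.95, 188 and 48.1 TPM. For each of these control 2 was the highest library, and control 3 was the lowest. The counts of spi1b were not all whole. The repressor gfi1aa, which in zebrafish and mouse silences endothelial genes in emerging blood cells, read 119.7, 86.8 and 114 TPM and the haematopoietic bHLH factor tal1 54.99, 58.5 and 53.4 TPM. Both of these varied little, with control 2 the lowest for gfi1aa and the highest for tal1.

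The most abundant transcripts of the sorted cells belonged to the cytoskeleton, the ribosome, blood and muscle. actc1b, an alpha actin of skeletal and cardiac muscle, led the ranking by mean at 25080.3, 8446 and 38859 TPM, and its libraries differed by more than 4-fold. In control 2 it lay below actb2, lyz and actb1. The cytoplasmic actins actb2 and actb1 were both among the 4 highest genes by mean, at 18273, 23636 and 17993 TPM and at 10099, 11494 and 9849.5 TPM. lyz, the lysozyme of neutrophils and macrophages, stood between them by mean and read 10383, 18441 and 5784 TPM, and the embryonic alpha globin hbae1.2 11923, 4134 and 5275 TPM. The constitutive chaperone hspa8 read 4994, 8648 and 5807 TPM, the actin-binding profilin pfn1 5183, 7423 and 3769 TPM and the mitochondrial ADP/ATP carrier slc25a5 5330.1, 5065 and 5454 TPM. Counts of actc1b, both cytoplasmic actins and hbae1.2 were not all whole, and their values depend on how the authors divided reads among similar copies. 43 of the 98 cytosolic ribosomal protein genes stood among the 100 highest genes, led by rpl19 at 7253, 6428 and 7131 TPM. Ribosomal protein genes took 19.9, 12.8 and 19.1% of TPM in controls 1, 2 and 3. The 100 highest genes took 38.1, 29.8 and 36.9%, a mean of 34.9% (SD 4.47, n = 3), so control 2 had the flatter distribution.

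Transcription factors were ranked over a catalogue of 918 symbols in 20 families, of which 241 reached 10 TPM and 37 reached 100 TPM in every library. A group of 246 stayed under 1 TPM in every library. The leaders were bZIP factors of immediate early and stress responses. fosab, a Fos subunit of AP-1, read 1743, 2878 and 2546 TPM, and junbb, a Jun partner, 1912, 2113 and 2462 TPM. cebpb stood second by mean, with control 2 far above the others at 3523 TPM, and in control 3 it was below both fosab and junbb. xbp1, the effector of the unfolded protein response, read 861, 1616 and 1061 TPM. The first 10 places were held by fosab, cebpb, junbb, xbp1, junba, jdp2b, atf4b, atf4a, atf3 and jun, all bZIP genes. Among them atf4a, a factor of the integrated stress response, was the steadiest at 509, 489.7 and 458 TPM. The 55 genes of the AP-1, ATF, CREB and Maf family summed to 8836, 12282 and 11196 TPM, against 24566, 32091 and 28093 TPM for the whole catalogue.

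The next 10 places held Hairy-related factors and factors of endothelium and myeloid cells, besides nr4a1, id1 and hif1al. her9 and her6 were followed by nr4a1, an orphan nuclear receptor induced by growth and stress signals, at 127, 729 and 225 TPM, where control 2 was far above the others. cebpa, the granulocyte and monocyte factor, read 246, 509.5 and 233 TPM. fli1 and sox18, the ETS and SoxF factors of endothelium, stood together at means of 329 ± 77.5 and 322 ± 124 TPM (SD, n = 3), and their order turned between libraries, since sox18 read 389.5, 179.8 and 398 TPM. her15.1 read 411, 85.4 and 383 TPM, with counts not all whole, and id1, an inhibitor of bHLH factors downstream of BMP, 210.2, 199 and 421 TPM. cebpd read 311, 179.5 and 331 TPM and hif1al, a hypoxia-inducible factor, 255, 302 and 264 TPM.

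**Figure D2:**
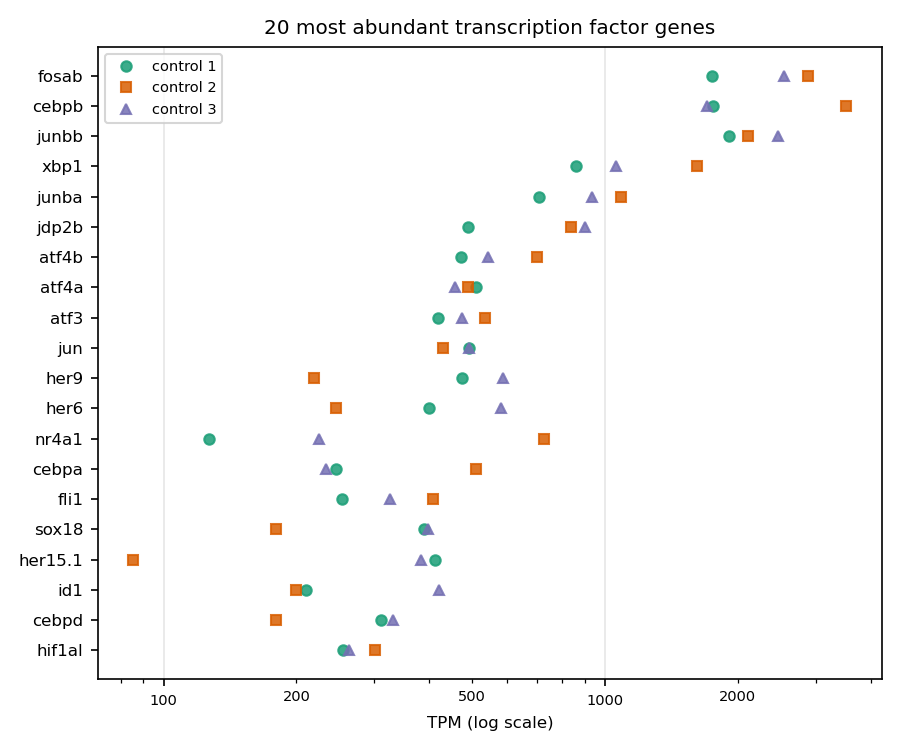
TPM on a log scale (x axis) of the 20 transcription factor genes of highest mean TPM (y axis, highest at the top), with a point for each control library. fosab, cebpb and junbb lie above the other factors in every library; control 2 is the lowest point for her9, her6, sox18 and her15.1 and the highest for nr4a1 and cebpa.

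The families differed in how they were spread over their members. The 26 ETS genes summed to 1591, 2259.9 and 1752 TPM, with 19 of them at 10 TPM or more in every library. Beside fli1 the highest ETS genes by mean were elk3, at 204, 300.3 and 221 TPM, and etsrp, the zebrafish Etv2 that starts the vascular programme, at 158, 132 and 213 TPM, both named after their values were seen. In control 2 etsrp was below ets2, spi1b, fli1rs and gabpa. The 224 homeobox genes held 25 members at 10 TPM or more, led by meis1b, a Hox cofactor of blood progenitors, at 78.6, 102 and 108 TPM. The 26 Hairy and Hey genes summed to 2304, 927 and 2495 TPM, lowest in control 2. The 67 nuclear receptors summed to 572, 1414 and 718 TPM, highest in control 2. Of these sums nr4a1 gave 127, 729 and 225 TPM and nr4a3 57.5, 186 and 89.5 TPM. The Runx and Cbf genes were low as a group, with 47.4, 87.5 and 37.6 TPM over 5 genes. The 24 SOX genes, which were led by sox18, summed to 848, 500.0 and 796 TPM and the 33 Krueppel-like and Sp genes, led by klf2b, to 728, 893 and 895 TPM. The 11 GATA genes and partners, led by gata2b, summed to 139.9, 176 and 128 TPM.

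Receptor tyrosine kinases carry the VEGF and angiopoietin signals of endothelium. Of 55 receptor tyrosine kinases, 10 reached 10 TPM and 0 reached 100 TPM in every library. tek, the angiopoietin receptor Tie2, was the highest at 93.96, 103 and 156 TPM and lay above its relative tie1, at 34.3, 61.6 and 33.5 TPM, in every library. flt4 was the highest VEGF receptor by mean, and flt1, a decoy receptor for VEGF-A, read 35.7, 14.1 and 36.3 TPM. Control 2 changed the order of the VEGF receptors, because kdrl was above flt1 there and below it in controls 1 and 3. csf1rb, a macrophage colony-stimulating factor receptor, read 14.5, 51.3 and 12.02 TPM. ltk, a receptor tyrosine kinase of pigment cell precursors, had 0 estimated counts in all 3 libraries.

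G protein-coupled receptors and their partners summed to 2350.3, 2598 and 2588 TPM, against 515, 650.1 and 645 TPM for the receptor tyrosine kinases. Of 60 listed, 25 reached 10 TPM and 5 reached 100 TPM in every library. gpr182, an atypical chemokine receptor of endothelium, read 259, 456 and 411 TPM. aplnra, an apelin receptor, read 443, 214 and 339 TPM and was lowest in control 2. ramp2 and calcrla, the parts of the adrenomedullin receptor, read 267, 205 and 289 TPM and 136, 212 and 194 TPM. s1pr1, the endothelial sphingosine phosphate receptor, read 205, 151 and 252 TPM and cxcr4b, a receptor for Cxcl12, 118, 167 and 96.1 TPM. Members with 0 counts in every library included the chemokine receptors cxcr2 and ccr7, the prostaglandin receptor ptger4a and the histamine receptor hrh1. A count of 0 allows up to 3 counts in each library, by counting error alone.

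Receptors of the TGF-beta, cytokine and Notch pathways followed. Of 20 TGF-beta and BMP receptors, eng, the endothelial co-receptor endoglin, read 159.7, 118 and 191 TPM and tgfbr2b 107, 117 and 160.5 TPM, and 6 members reached 10 TPM in every library. Of 34 cytokine and TNF receptors, 9 did, led by il13ra2, an interleukin 13 receptor chain, at 273, 243 and 403 TPM and il10rb at 161, 168 and 159 TPM. il6r, the interleukin 6 receptor, read 47.5, 114 and 39.9 TPM and tnfrsf1a, a TNF receptor, 52.6, 71.2 and 52.5 TPM. il10rb was steady, while il6r in control 2 was more than 2-fold above either other library. Of 13 Notch receptors and ligands, 4 reached 10 TPM. The receptor notch1a read 19.8, 22.4 and 27.7 TPM and the ligand dlc 15.5, 22.7 and 24.6 TPM. Of 40 guidance and Wnt receptors, 9 reached 10 TPM, led by robo4, the endothelial Roundabout receptor, at 39.2, 66.6 and 36.5 TPM and nrp2b, a neuropilin, at 29.3, 46.5 and 49.99 TPM.

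Adhesion and junction genes had a summed level of 5545, 6032 and 5501 TPM over 81 genes. 36 of these reached 10 TPM and 7 reached 100 TPM in every library. The tetraspanins cd63 and cd81a were the highest, at 1435, 1489.8 and 1185 TPM and 832, 929 and 884 TPM. sele, the endothelial selectin that captures leukocytes, read 329.9, 332 and 352 TPM. jam2a, a junctional adhesion molecule, read 194, 188 and 239 TPM and cldn5b, an endothelial claudin, 124, 106 and 134 TPM. itgb1b, an integrin beta 1 gene, read 95.7, 91.4 and 84.5 TPM. cldnb, a claudin of epidermis and lateral line, read 133, 59.6 and 130.3 TPM and was lowest in control 2.

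Inflammatory cytokines led the 81 secreted growth factors, cytokines and chemokines, of which 24 reached 10 TPM and 4 reached 100 TPM in every library. il1b, interleukin 1 beta, read 600.2, 872 and 296 TPM. csf3b, a granulocyte colony-stimulating factor, read 389.9, 196 and 122 TPM and il6 191, 139 and 106 TPM. tnfb and tnfa, the zebrafish TNF genes, read 78.6, 217 and 47.7 TPM and 103, 41.9 and 20.6 TPM. Control 3 was the lowest library for il1b, csf3b, il6, tnfb and tnfa. cxcl12a, the chemokine that retains stem cells, ran the other way, at 119.6, 128 and 180.2 TPM with control 3 the highest. Of the 37 genes of this list with a mean of at least 5 TPM, 15 were lowest in control 3, beside 33.4% of all genes. Their median log2 difference there, relative to all genes, was -0.016. The neutrophil and macrophage lists also had their lowest sums in control 3, at 7814 and 1605 TPM, and their part in these cytokine values was not tested. The counts of csf3b were not all whole.

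Among secreted modulators egfl7 was followed by ccn2a, a matricellular growth factor of the notochord and other tissues, at 339, 178 and 369 TPM and by angptl4, an inhibitor of lipoprotein lipase, at 174, 119 and 205 TPM. igfbp1a, a binding protein of insulin-like growth factors, read 136, 135 and 156 TPM. Matrix genes were led by col2a1a, the type II collagen of notochord and cartilage, at 1238, 827 and 1477 TPM and by sparc, a collagen-binding glycoprotein, at 644, 345 and 794 TPM. lama4, a laminin chain of vascular basement membrane, read 33.2, 55.9 and 34.9 TPM and was named after its values were seen. Proteases were led by the lysosomal cathepsins ctsla, at 1419, 675 and 1522 TPM, and ctsba, at 685, 612 and 592 TPM. mmp13a, a collagenase, read 269, 465 and 128 TPM, with control 2 the highest. Of 23 complement, lectin and scavenger genes 11 reached 10 TPM in every library, among them scavenger receptors of sinusoidal and venous endothelium, with lyve1b at 216, 192 and 282 TPM and stab2 at 105, 119 and 122.97 TPM, the counts of stab2 not being all whole.

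Zebrafish kept many genes as a pair of copies from the genome duplication of teleost fish. The libraries show which copy was higher in the sorted samples as a whole, not which cell type it came from. Each pair of symbols that differ in a final a or b was compared within each library, as the mean difference of log2(TPM + 1), by limma with Benjamini-Hochberg adjustment over the 2203 pairs with a summed mean of at least 2 TPM. At an adjusted p under 0.05 and a difference of at least 1, 1498 pairs were called, or 68.0%. A single member held over 90% of the pair's level in 779 pairs. Some pairs of this kind are not duplicates but subunits or other family members with such names, as cebpa and cebpb are. Without those listed as subunits 1470 of 2157 pairs were called. Of the named pairs, 69 were tested and 53 called, or 76.8%, against the 68.0% of all pairs. They include genes of blood and endothelium, the pair cebpa and cebpb, and general genes such as rac1a with rac1b.

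By class, 95 of 149 tested transcription factor pairs were called, or 63.8%, 41 of 55 receptor pairs, 19 of 22 adhesion pairs and 37 of 51 secreted pairs, beside the 68.0% of all pairs. Of the 6 pairs of blood regulators given first, 3 were called. gata2a read 17.7, 18.02 and 29.5 TPM and gata2b 50.3, 45.4 and 49.2 TPM, a log2 difference of -1.15 (SE 0.22, limma adjusted p = 0.0036), and gata2b was higher in 3 of 3 libraries. gfi1aa was above gfi1ab, which read 12.5, 32.9 and 9.65 TPM, by 2.65 (SE 0.41, limma adjusted p = 0.0015). meis1a, at 18.8, 14.5 and 21.1 TPM, was below meis1b, with a difference of -2.35 (SE 0.21, limma adjusted p = 0.00015). For the Pu.1 copies spi1a and spi1b the difference was -0.77 (SE 0.16), under the size required for a call, and their counts were not all whole. For gata1a and gata1b, the erythroid factor, the higher copy changed between libraries, at 35.3, 17.00 and 6.71 TPM for gata1a and 6.97, 57.1 and 22.1 TPM for gata1b, whose counts were not all whole. The difference of hoxa9a and hoxa9b was not called (-0.40, SE 0.27, limma adjusted p = 0.22).

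For other factors almost all of the level came from a single copy. fosaa read 3.77, 9.52 and 10.4 TPM beside fosab (-8.14, SE 0.18, limma adjusted p = 4.1e-06), and fosl1b stayed under 0.1 TPM beside fosl1a, at 191, 184 and 194 TPM. klf6a, a Krueppel-like factor, averaged 116 TPM and klf6b 0.107 TPM. The flow-responsive klf2a was below klf2b, with a difference of -1.03 (SE 0.30, limma adjusted p = 0.02), but klf2a read 33.1, 152 and 138 TPM, and without control 1 the difference was -0.58 and no longer called. Outside the pairs named by a final letter, runx3 read 1.81, 5.26 and 1.02 TPM beside runx1 at a mean of 22.5 TPM. lyl1 read 7.17, 21.7 and 9.35 TPM beside tal1 at a mean of 55.6 TPM, and neither comparison was tested.

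Receptor and ligand pairs showed the same range. aplnrb averaged 63.4 TPM beside aplnra, a difference of 2.35 (SE 0.24, limma adjusted p = 0.00026). tgfbr2a, at 1.96, 3.90 and 2.06 TPM, lay far below tgfbr2b (-5.17, SE 0.27, limma adjusted p = 2.1e-05). cxcl12a exceeded cxcl12b, at 32.1, 12.5 and 32.7 TPM, by 2.52 (SE 0.28, limma adjusted p = 0.00039). The receptors cxcr4a and cxcr4b differed by -1.01 (SE 0.31, limma adjusted p = 0.025), a call that was lost without control 1 or without control 2, where the difference was -1.19 and -0.55. notch1a and notch1b differed by 0.74 (SE 0.24), under the size required. The prostaglandin receptor ptger4b read 14.6, 27.3 and 14.8 TPM while ptger4a had 0 counts.

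Among surface and junction pairs, 12 of 22 tested pairs of the adhesion list were held over 90% by a single copy. The same held for 41 of 149 transcription factor pairs, 17 of 55 receptor pairs, 21 of 51 secreted pairs and 779 of 2203 over all pairs. plvapa read 1.55, 1.49 and 1.15 TPM beside plvapb (-7.97, SE 0.19, limma adjusted p = 4.1e-06), and the counts of plvapa were not all whole. jam2a was above jam2b by 6.26 (SE 0.31), whereas jam3a was below jam3b (-4.84, SE 0.23). itgb1a, at 3.02, 4.58 and 2.66 TPM, was below itgb1b (-4.39, SE 0.22, limma adjusted p = 1.8e-05). cldn5a, at 43.4, 58.1 and 51.4 TPM, was present beside cldn5b (-1.24, SE 0.19). itga6a and itga6b, a laminin receptor subunit, differed by -0.03 (SE 0.27). The largest differences over all pairs with a summed mean of at least 100 TPM included ctsla with ctslb and ctsba with ctsbb, where ctslb and ctsbb had 0 counts in every library, and the lactate dehydrogenase genes ldhba and ldhbb, at means of 721 ± 144 and 0.370 ± 0.295 TPM (SD, n = 3).

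**Figure D3:**
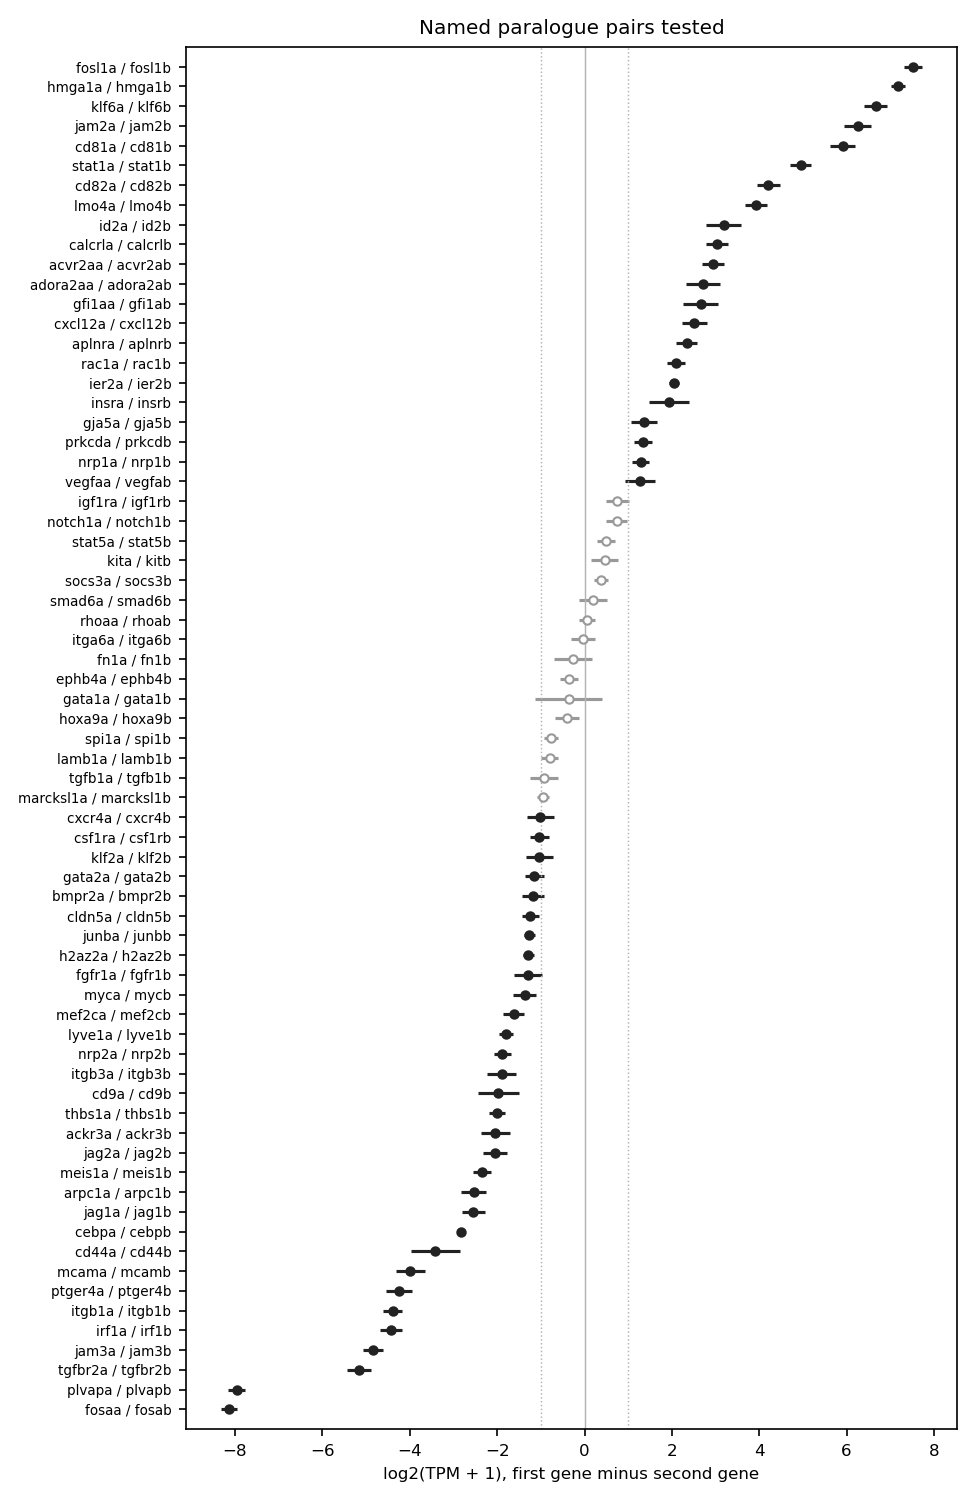
Mean difference of log2(TPM + 1) within libraries, first gene minus second gene (x axis), for the 69 named pairs tested (y axis), over the 3 control libraries, with bars of 1 SE from limma. Filled points are the 53 pairs called, open points the others, and dotted lines mark a difference of 1 in either direction; fosaa / fosab lies at -8.14 and fosl1a / fosl1b at 7.52.

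Genes of other cell types took more of each library than the endothelial and stem cell genes listed. The 291 genes on 17 lists of other cell types, without those on the endothelial and stem cell lists, took 12.8, 8.21 and 12.6% of TPM in controls 1, 2 and 3, while the 99 endothelial, arterial, venous and stem cell genes took 1.15, 1.39 and 1.24%. The set of 99 genes includes cebpb and coro1a, also genes of myeloid cells, at 1753, 3523 and 1703 TPM and 680.0, 1730.0 and 664 TPM. Both were highest in control 2, and the place of control 2 as the highest library for this set rests on them. In bulk libraries fewer cells of a type and less RNA per cell cannot be told apart. Skeletal muscle was the largest list by mean, at 57894, 17983 and 85238 TPM, with 34 of 37 genes at 1 TPM or more in every library. In control 2 the neutrophil list was larger, but the single gene lyz gave 18441 of its 26742 TPM there. In the skeletal muscle list actc1b was followed by mylpfa, a fast myosin light chain, at 4363, 1428 and 7748 TPM. Next came the muscle creatine kinase ckmb at 3183, 998 and 4432 TPM. The notochord and floor plate list summed to 9987, 4812 and 10684 TPM, and its factor tbxta, the Brachyury gene of the notochord, read 129, 35.2 and 168 TPM. krt8 and krt18a.1, on both this and the epidermal list, account for part of each sum.

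Blood cells that can pass through the trunk were read at very different levels. The erythroid list summed to 33511, 13545 and 12441 TPM without hbae1.2, which is not on it, with hbbe1.3 at 6340.2, 3367 and 2859.8 TPM. The counts of hbbe1.3 were not all whole. The neutrophil list summed to 13738, 26742 and 7814 TPM, with lyz followed by npsn, an astacin protease of neutrophils, at 1006, 3632 and 726 TPM and the myeloperoxidase mpx at 329.6, 935 and 179.6 TPM. The macrophage list summed to 2577, 5081 and 1605 TPM, and mpeg1.1, a perforin of macrophages, read 36.4, 84.8 and 15.7 TPM, with counts not all whole, and was named after its values were seen. Thrombocyte genes summed to 344, 541 and 407 TPM, fli1 giving most of it, followed by thbs1b at 58.05, 72.5 and 57.0 TPM. Of these 11 genes, 2 reached 10 TPM in every library, and 3 stayed under 1 TPM in every library, among them itga2b. mpl, the thrombopoietin receptor, read 3.76, 32.17 and 7.14 TPM and was highest in control 2, as gp1bb and f5 were. By contrast nfe2, gp9 and itgb3b were highest in control 1, with nfe2 at 6.62, 4.85 and 2.35 TPM. Lymphoid genes summed to 124, 231 and 119 TPM, most of it from ikzf1, and 10 of 13 lymphoid genes stayed under 1 TPM in every library. Among those were rag1 and cd8a, which were named after their values were seen.

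The epidermal list summed to 14276, 15089.8 and 11377 TPM, but pfn1, which most cells express, gave 5459 TPM of the mean sum of 13581 TPM, and krt4, a keratin of the outer skin layer, read 1222, 2705 and 449.8 TPM. Neural genes summed to 422, 347 and 399.5 TPM, and their highest members her4.1 and her4.2 are also Notch targets, with counts not all whole. Sclerotome and mesenchyme genes, led by sparc, summed to 1154, 953 and 1329.8 TPM and pronephros genes, led by atp1a1a.4, to 355, 156 and 407 TPM. Neural crest and pigment genes, led by the factor tfec, summed to 147, 79.3 and 141 TPM, endoderm genes, led by foxa1, to 112, 64.1 and 99.3 TPM and smooth muscle genes, led by myh11a, to 37.6, 47.5 and 33.6 TPM. Cardiac muscle summed to under 1 TPM in each library, with cmlc1, gata4 and tbx5a at 0 counts in all. Yolk, hatching gland and germ line genes summed to 1.41, 3.84 and 2.21 TPM, and lens and retina genes to 16.8, 4.40 and 25.7 TPM.

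**Figure D4:**
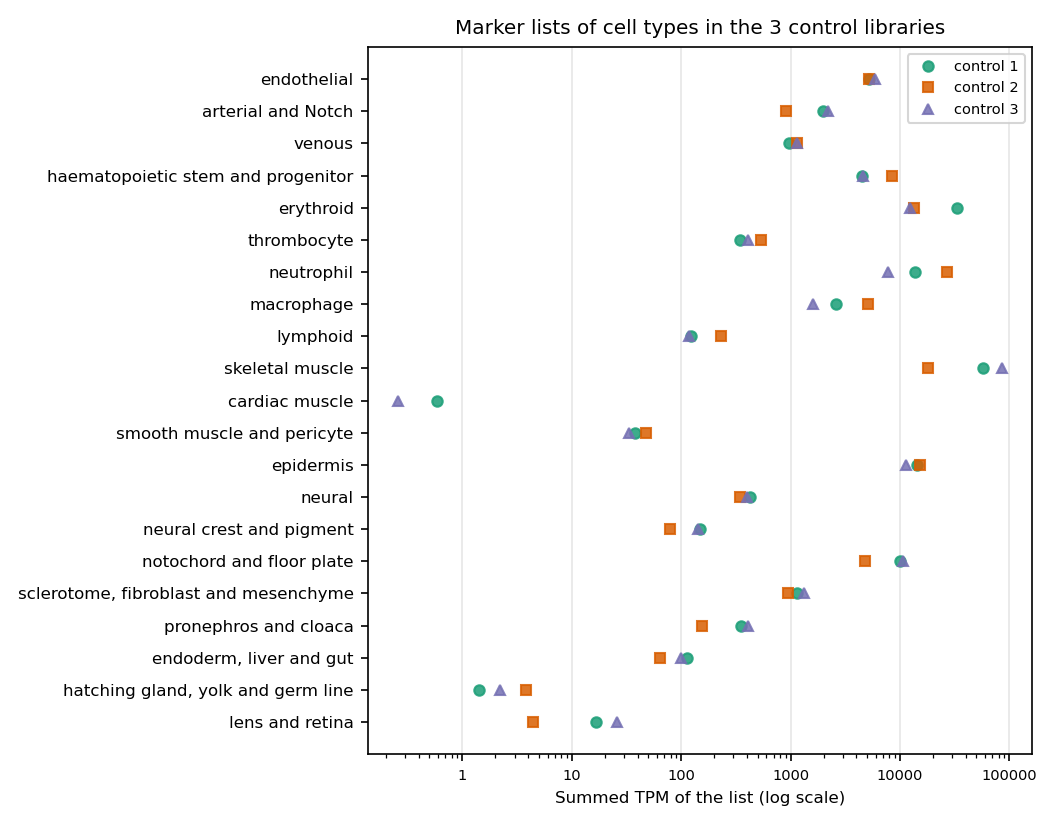
Summed TPM of each marker list on a log scale (x axis), by cell type (y axis), with a point for each control library. Endothelial sums lie between 5199 and 5920.2 TPM, while skeletal muscle runs from 17983 to 85238 TPM; cardiac muscle in control 2 is at 0 and has no point.

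The spread among the 3 control libraries was measured as the SD of log2(TPM + 1) per gene, whose median was 0.38 over the 8110 genes with a mean of at least 10 TPM. Without control 2 it was 0.16, and control 2 was the library farthest from the other libraries' mean in 64.8% of these genes. The median was 0.34 for endothelial genes, 0.37 for the 280 transcription factors at that level, 1.19 for skeletal muscle, 0.94 for macrophage, 0.84 for neutrophil and 0.76 for erythroid genes. The 8 genes of smallest spread with a mean of at least 50 TPM included genes of signalling and metabolism. mdh2, mitochondrial malate dehydrogenase, read 351, 347 and 346 TPM, and smad5, a signal transducer of BMP receptors, 50.8, 51.03 and 49.9 TPM. Among the 8 genes of largest spread, atp1a1a.2, a sodium pump subunit, stood first at 3.13, 182 and 0.460 TPM. ngs, which encodes a notochord granular surface protein, came next at 12.7, 1.17 and 191 TPM, and atp1a1a.4 read 112, 9.86 and 158 TPM. The counts of these atp1a1a tandem copies were not all whole, and how reads were divided between them is uncertain. Their sequences were not compared here. fxyd2, a modulator of the same pump in kidney, read 146, 9.96 and 172 TPM, and the intermediate filament of muscle desma 84.3, 8.48 and 101 TPM. The repressor her2 read 222, 18.1 and 197 TPM and tgm2l, a transglutaminase, 459, 33.9 and 279 TPM.

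Each library was set against the mean of the other libraries on the log2(TPM + 1) scale. Over the 10604 genes with a mean of at least 5 TPM the median difference was 0.44 in control 2, -0.24 in control 1 and -0.16 in control 3, so list medians are given relative to these. Of these genes 67.7% were highest and 19.8% lowest in control 2, and 15.7% were highest in control 1. Relative to all genes, the 31 skeletal muscle genes at that level had a median of -2.35 in control 2, 0.86 in control 1 and 1.57 in control 3, and control 2 was the lowest library for 28 of them. The 15 notochord genes had -1.57 in control 2, where 14 were lowest. Myeloid genes ran the other way, with 0.89 for 16 macrophage genes and 0.85 for 12 neutrophil genes in control 2, and -1.14 and -1.07 in control 3. Erythroid genes stood apart in control 1, at 1.47, where 19 of 21 were highest. The 20 epidermal genes had -1.48 in control 3 but were divided, with 13 lowest there (33.4% of all genes) and 4 highest (16.6% of all genes). krt8, for example, read 2142, 1108 and 2224 TPM in controls 1, 2 and 3. Endothelial genes had -0.58 in control 2, 0.13 in control 1 and 0.27 in control 3.

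Single genes were also ranked by their difference from the other libraries. In control 2 cpa5, a carboxypeptidase gene of mast cells that was also counted on the neutrophil list, was high, at 1232 TPM against 316 and 216 TPM in controls 1 and 3. Also high there was dusp2, a MAP kinase phosphatase, at 470.1 TPM against 69.7 and 94.6 TPM. The small heat shock gene hspb1 was low in control 2, at 19.04 TPM against 187 and 183 TPM in controls 1 and 3. In control 1 the beta globin hbbe3 was high, at 3877 TPM against 493 and 1039 TPM in controls 2 and 3, and klf2a was low. In control 3 ngs was high, at 191 TPM against 12.7 and 1.17 TPM in controls 1 and 2. The skin keratin krt4 was low in control 3, at 449.8 TPM against 1222 and 2705 TPM. These genes were picked as the extremes of their library, so their differences are descriptions with no test.

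**Figure D5:**
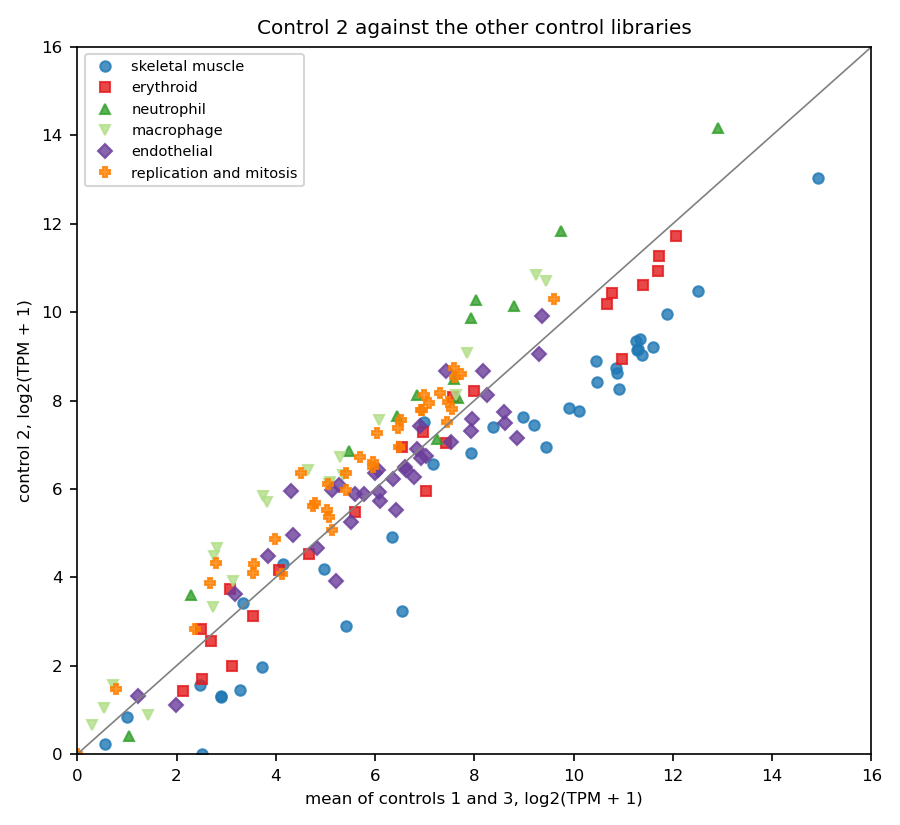
log2(TPM + 1) in control 2 (y axis) against the mean of controls 1 and 3 on the same scale (x axis), with a point for each gene of 6 lists and a line of equal levels. Most skeletal muscle genes lie below the line, most neutrophil, macrophage and replication genes above it, and endothelial genes around it.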

How the data were processed

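Groups and replicate numbers came from the sample labels. Per the file headers, the deposited table gives TPM, FPKM and an estimated count for each gene and library, and every per-sample column matched a sample. Per the submitters' processing notes, the tools were DESeq2 1.30.1, BS-Seeker2 2.1.8, HTSeq 0.12.4 and HISAT2 2.2.1, with no role named, and the genome build was GRCz11. Neither annotation nor strand setting is stated in the sources used here, so overlapping and antisense genes cannot be told apart. Of the deposited estimated counts, 13.5 to 13.7% per control library were not whole, and they held 10.1 to 14.4% of the counts. The morphant libraries and the methylation data were not used here.

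Levels are the authors' TPM. Only paralogue pairs were tested, with limma 3.58.1 in R 4.3.3 on the within-library difference of log2(TPM + 1), with an intercept, a mean-variance trend, two-sided p-values and Benjamini-Hochberg adjustment over 2203 pairs, at a threshold of 0.05 and a minimum difference of 1. With 3 libraries an exact sign permutation cannot go below p = 0.25. Estimated counts were rounded for TMM (edgeR 4.0.16) and DESeq2 1.42.0 size factors, used as alternatives. Lengths were computed from the deposited estimated counts and FPKM values.

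The members, lists and pairs were chosen with earlier results of these data known. Added or trimmed after values were seen were the lists of immediate early, chaperone, replication, methylation and NF-kB genes, the transcription factor catalogue and the list of subunit pairs. Of 1184 list entries 1151 were found, 24 of them through synonyms that RefSeq lists for GRCz12tu, an assembly from which no coordinates were taken; the others were not analysed here. 19 symbols stand on a second row, and the row of higher mean TPM kept the plain symbol. Named genes were the markers, the leading members of each list, the first 20 transcription factors, listed pairs, and extremes of spread and of each library among genes with a mean of at least 50 TPM.

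The pair test was run on simulated counts. A first simulation, with negative binomial draws, went over the limit set for false calls. A second kind of simulation (log-normal spread with Poisson counting) and 10 seeds of each kind were added after that failure, and those 20 runs stayed within the unchanged limit. The simulations gave a difference to a small part of the pairs, while 68.0% of the real pairs were called. They also held no difference between libraries related to gene length, so they cannot give the share of false calls in these data. The pair calls are therefore best read as differences of mean log2 level, with a share of false calls that depends on the draw.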

Additional observations from a re-analysis of the deposited data

How the results depend on the processing

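Control 2 decided the spread: the median SD was 0.38 with all libraries and ran from 0.16 to 0.43 when single libraries were left out, the lowest being without control 2. The number of genes detected in every library was 13896 at 1 TPM and 9108 at 5 TPM, and ran from 14302 to 14535 when single libraries were left out. The 100 highest genes held 34.9% of TPM but 25.5% of estimated counts, which are not divided by length. Paralogue pairs called numbered 926 at a minimum difference of 2, against 1498, and 1425 to 1499 when single libraries were left out. They numbered 1079 with a pseudocount of 5, 1113 of 1806 pairs on TMM-scaled counts per kilobase and 1315 of 1921 on whole counts, all within 1.5 times the main number, as were the other alternatives, including the one chosen after seeing the data that leaves out subunit pairs. Over the named pairs and alternatives, 908 values kept their call, 40 lost it, 9 gained one and no called direction turned. Of the first 20 transcription factors, 16 stayed by estimated counts and 18 to 19 when single libraries were left out. Sums of marker lists stayed within the spread between libraries 75 times under the alternatives and moved beyond it 13 times. The share of TPM on other cell type lists was 11.2%, 9.32% as TMM-scaled CPM and 10.4 to 12.7% when single libraries were left out. No paired analysis was possible because a single group of samples was used. Depth limits genes near 1 TPM, and in these 3 libraries a library's sort and its preparation cannot be told apart.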

Other observations

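Immediate early and feedback genes were high across the control libraries, on a list chosen after values were seen. Of 45 genes, 37 reached 10 TPM and 24 reached 100 TPM in every library, with a summed level of 12945, 17441 and 16047 TPM in controls 1, 2 and 3. ier2a, an early response gene, read 1751, 1923 and 2009 TPM, the MAP kinase phosphatase dusp5 540.1, 773 and 836 TPM, and socs3a, a feedback inhibitor of cytokine signals, 352, 538 and 573 TPM. Chaperone genes summed to 11924, 17174 and 11433 TPM, of which hspa8 alone gave 4994, 8648 and 5807 TPM. The median of the chaperone genes in control 2, on the log2 scale and relative to all genes, was 0.03. The inducible hsp70.3 read 876, 1546 and 616 TPM, while the heat shock gene hsp70l was highest in control 1, at 625, 260 and 115 TPM. The counts of both were not all whole.

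Replication and mitosis genes were present at 3021, 5890.2 and 3925 TPM over 37 genes, and control 2 was the highest library for 31 of the 34 with a mean of at least 5 TPM, beside 67.7% of all genes at that level. Their median in control 2, on the log2 scale and relative to all genes, was 0.42. pcna, the DNA polymerase clamp, read 673, 1265 and 911 TPM and the licensing helicase gene mcm2 174, 424 and 213 TPM. All 19 genes of the DNA methylation machinery reached 1 TPM in every library. The de novo methyltransferases dnmt3bb.1 and dnmt3ba led them, at 144, 348 and 177 TPM and 122, 271 and 113 TPM, and the maintenance enzyme dnmt1 read 20.4, 50.98 and 25.8 TPM. Of 25 NF-kB pathway genes, 16 reached 10 TPM in every library, led by the inhibitors nfkbiab, at 680.0, 682 and 378 TPM, and nfkbiaa, at 299, 475 and 163 TPM, with control 3 the lowest for both.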
